A study of Mus musculus with 96 samples.

Results

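Hematopoietic cells (HCs) of the mouse heart were compared between day 28 (D28) and day 7 (D7) after acute myocardial infarction, the interval in which the inflammation that follows an infarct resolves. The comparison used the 4 libraries labelled HC at D28 and the 4 labelled HC at D7, chosen by cell type and day alone, which are 8 of the 96 small RNA libraries of the series. The mature tables listed 1978 miRNAs, of which 1300 had a count in these 8 libraries and 635 passed the filter on low counts and were tested. The series covers HCs, fibroblasts (FBs), cardiomyocytes (CMs) and endothelial cells (ECs) at D0, D1, D3, D7, D14 and D28, with 4 libraries each. D0 is the control, from mice that were not operated on and had no infarct.

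All mice were male C57Bl/6J, and infarction was performed at an age of 12 to 14 weeks. Age at harvest therefore differed with the day, and D28 mice were older than D7 mice. The left anterior descending artery was ligated permanently, so the infarct was not reperfused. HCs were taken from digested hearts with magnetic beads against CD45, the surface protein carried by nucleated blood cells, and thus hold macrophages, neutrophils and lymphocytes together. Each library was a pool of 3 mice, or of 2 where a sample was missing, made from 150 ng of RNA with 15 PCR cycles. P-values therefore measure the spread between pooled libraries. In tests within HCs, this spread and the filter on low counts drew on 23 HC libraries of all 6 days. In such mixed RNA, fewer cells of a type and less RNA per cell cannot be told apart.

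MiRNAs are short RNAs that lower the stability and translation of mRNAs by pairing with them, mainly through a stretch near the 5′ end called the seed. Members of a family share the seed and are therefore read as having overlapping targets, and several miRNAs can be processed from one transcript as a cluster. In leukocytes, miR-142 and miR-223 mark the blood lineages, miR-155 and miR-147 are induced by inflammatory signals, and miR-146 is induced by the same signals and limits them. MiR-21 is abundant in macrophages of injured tissue. MiR-199, miR-214, miR-143 and miR-145 are known from fibroblasts, smooth muscle and pericytes, and miR-210 is a target of the hypoxia factor HIF-1.

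The sequences of the miRNAs that rose and carry the comparison are given 5′ to 3′ from RefSeq (GRCm38.p6), with the seed, bases 2 to 8, in capitals. They are ordered by shared seed, because the first 3 sets show families whose printed members rose together. MiR-15b-5p and let-7i-5p are printed beside them because they share a seed with a member that rose and themselves fell, calls that were both lost without D7 replicate 2. Of the 3 miRNAs tested with the seed CCCUGAG, 2 rose, and miR-351-5p, not printed, did not pass the test.
miR-125b-5p: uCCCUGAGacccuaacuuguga
miR-125a-5p: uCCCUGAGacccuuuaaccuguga
miR-99a-5p: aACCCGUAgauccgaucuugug
miR-100-5p: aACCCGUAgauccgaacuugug
miR-99b-5p: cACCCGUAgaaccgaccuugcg
miR-146a-5p: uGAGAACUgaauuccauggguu
miR-146b-5p: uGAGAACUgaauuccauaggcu
miR-199a-3p: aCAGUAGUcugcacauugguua
miR-199a-5p: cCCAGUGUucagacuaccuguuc
miR-214-5p: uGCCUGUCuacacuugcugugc
let-7b-5p: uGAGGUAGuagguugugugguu
let-7c-5p: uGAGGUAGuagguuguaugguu
let-7i-5p: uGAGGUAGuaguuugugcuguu
miR-195a-5p: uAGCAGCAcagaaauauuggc
miR-497a-5p: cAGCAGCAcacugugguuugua
miR-15b-5p: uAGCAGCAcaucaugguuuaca

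The following sequences belong to the miRNAs that fell, again with the seed in capitals. MiR-7a-5p and miR-7b-5p, miR-132-3p and miR-212-3p, and miR-27a-3p and miR-27b-3p are pairs with a common seed in which both members fell, for miR-212-3p only with D7 replicate 2 in the fit. MiR-23a-3p is shown because it is made from the same transcript as miR-27a-3p and rose.
miR-7a-5p: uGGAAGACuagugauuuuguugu
miR-7b-5p: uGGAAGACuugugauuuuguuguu
miR-132-3p: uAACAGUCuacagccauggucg
miR-212-3p: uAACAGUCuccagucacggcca
miR-27a-3p: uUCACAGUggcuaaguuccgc
miR-27b-3p: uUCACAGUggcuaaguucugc
miR-23a-3p: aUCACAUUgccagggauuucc
miR-21a-5p: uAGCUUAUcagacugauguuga
miR-142a-5p: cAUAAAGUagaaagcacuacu
miR-142a-3p: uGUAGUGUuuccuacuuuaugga
miR-147-5p: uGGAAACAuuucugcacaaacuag
miR-155-5p: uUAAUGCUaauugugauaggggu
miR-210-3p: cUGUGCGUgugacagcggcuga

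Total mature counts lay between 8217355 and 14883797 at D7 and between 13475728 and 20324019 at D28. Reads without a match to a mature sequence made up 49.7% to 57.5% of the total at D7 and 35.8% to 43.9% at D28, so the days did not overlap in this measure, and its part in the results was not tested. The 6 leukocyte miRNAs (both arms of miR-142a, miR-223 and miR-511) summed to 1.08% to 1.63% of the mature counts at D7 and 0.714% to 1.02% at D28, against at most 0.00781% in FBs of these days. The D28 libraries lay at a mean distance of 0.343 to 0.413 (root mean square, log2 scale) from the others of that day. At D7, 1 HC library stood apart. D7 replicate 2 had a mean distance of 0.727 (root mean square, log2 scale) from the other D7 libraries, which lay at 0.516 to 0.590. Calls and counts of named groups that it alters are given below also without it.

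Between D7 and D28, 196 of the 635 miRNAs changed (30.9%), with 73 higher (11.5%) and 123 lower (19.4%) at D28 (edgeR quasi-likelihood test, adjusted p under 0.05). At an unadjusted p under 0.05 the count was 265. In 176 miRNAs (27.7%) every D28 library lay on one side of every D7 library. Without D7 replicate 2, 136 miRNAs passed, 55 higher and 81 lower. Values are given as CPM, each count divided by the mature counts of its library and scaled with TMM factors, and the median change over the 635 miRNAs was -0.12 on the log2 scale. With scaling by library size alone the median was -0.23 and the split was 60 higher and 162 lower.

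**Figure D1:**
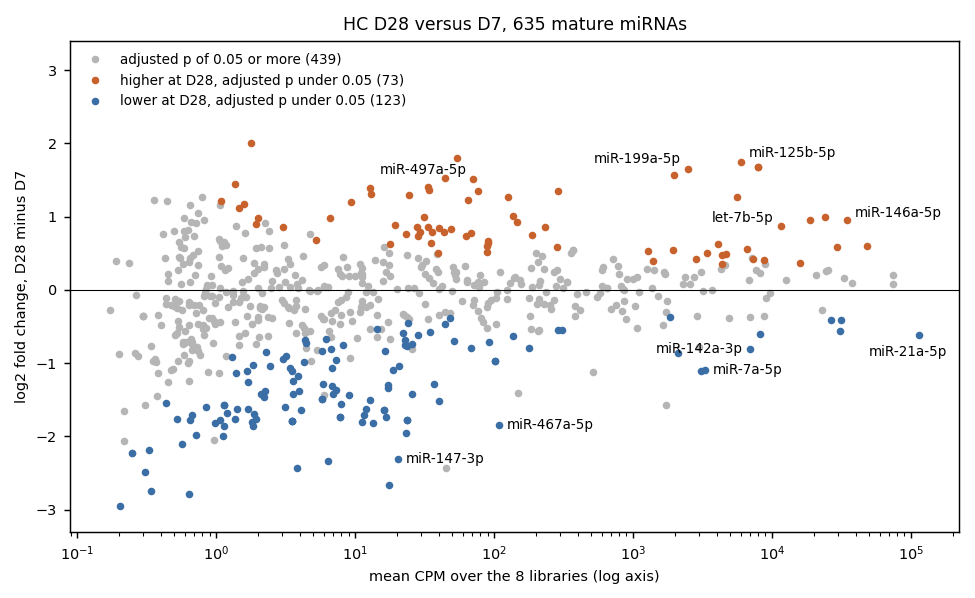
Each point is 1 of the 635 miRNAs tested, with the mean CPM of the 8 libraries on a log axis and the log2 change from D7 to D28 on the vertical axis. The 73 miRNAs that were higher and the 123 that were lower at D28 are coloured, and the other 439 are grey.

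The miRNAs that rose tended to be those with a higher level in FBs. Of the 73 that were higher at D28, 54 (74%) had a lower plain CPM in HCs than in FBs at D7, against 16 of the 123 that were lower at D28 (13%) and 185 of all 635 (29.1%). This is a description, since the HC level at D7 also enters the change. The 9 fibroblast and mural cell markers summed to 1.12% to 1.64% of HC counts at D7, 2.01% to 2.93% at D14 and 2.37% to 3.11% at D28. None of the 9 was at 0 in any of the 8 libraries. In FBs they made up 9.69% to 10.4% at D7 and 8.81% to 10.5% at D28. The part of this shift in the rises below was not tested.

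Among the fibroblast and mural cell markers, 7 of 9 rose and none fell, with a median log2 change of 1.35. Without D7 replicate 2, 6 rose, with a median of 1.36. The 3′ arm miR-199a-3p stood at 3151, 3160, 4295 and 4642 CPM in the 4 D7 libraries and at 15329, 8814, 10796 and 13954 CPM in the 4 D28 libraries. All D28 libraries lay above all D7 libraries. The change was 3.21-fold (log2 1.68, SE 0.18, edgeR adjusted p = 2.8e-07). MiR-199b-3p is listed with identical counts, so the 2 names cannot be told apart. The opposite arm, miR-199a-5p, had 911, 1075, 1239 and 1548 CPM at D7 and 4965, 2526, 3170 and 4365 CPM at D28. It rose 3.15-fold (log2 1.65, SE 0.20, edgeR adjusted p = 1.7e-06), and its near copy miR-199b-5p 2.97-fold.

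MiR-199a is encoded by a pair of hairpins, and that on chromosome 1 lies with Mir214 within chr1:162217814-162223477 (GRCm38, plus strand), both overlapping exons of the noncoding gene Dnm3os. All 4 arms tested from this locus rose. MiR-214-5p, the less abundant arm at D7 and at D28, had 18.1, 21.5, 22.6 and 29.9 CPM at D7 and 81.1, 52.7, 53.7 and 78.0 CPM at D28. It rose 2.87-fold without overlap (log2 1.52, SE 0.19, edgeR adjusted p = 2.1e-06), and miR-214-3p rose 2.55-fold. The smooth muscle miRNA miR-143-3p, on the other hand, had 5866, 5134, 7752 and 5571 CPM at D7 and 8857, 8645, 8618 and 6825 CPM at D28. Its ranges overlapped and its log2 change of 0.44 did not pass the test (edgeR adjusted p = 0.087), nor did the 0.50 of miR-145a-5p (edgeR adjusted p = 0.10). Their partner arms miR-143-5p and miR-145a-3p were among the 7 markers that rose. Without D7 replicate 2, miR-143-5p still passed (log2 0.67, edgeR adjusted p = 0.033) and miR-145a-3p did not (log2 0.41, edgeR adjusted p = 0.087).

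For markers of other heart cells fewer calls were made. The 12 listed cardiomyocyte miRNAs summed to 2.61% to 4.56% of counts at D7 and 2.64% to 4.30% at D28. Of these, 9 were tested, with a median log2 change of 0.47, and 1 of the 9 rose. The sum for the 2 endothelial miRNAs was 1.66% to 2.49% at D7 and 1.94% to 2.40% at D28, with neither past the test. Among 5 erythroid miRNAs 1 rose, with a median of 0.54. Neither the cardiomyocyte nor the erythroid list had a call without D7 replicate 2, with medians of 0.38 and 0.45. The red cell miRNA miR-451a had a log2 change of 0.11 (edgeR adjusted p = 0.87). MiR-1a-3p, the main cardiomyocyte miRNA, stood at 31036, 26489, 40644 and 25815 CPM at D7 and 45836, 35744, 27590 and 29701 CPM at D28, so its ranges overlapped.

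The related families of miR-99, miR-100 and miR-125, known from blood stem cells and from the control of macrophage activation, rose almost throughout. Of their 9 members tested, 8 rose and none fell, with a median log2 change of 0.95. Without D7 replicate 2, 6 rose. The sum of all 10 listed members grew from 3.29% to 5.38% of HC counts at D7 to 7.07% to 8.53% at D28. It was 7.45% to 8.08% in the 3 D0 libraries used. In FBs the same members made up 13.16% to 16.27% of counts at D7 and 12.96% to 14.78% at D28. These shares lay above those of HCs on both days. The part of RNA from FBs in this rise was not tested. Replicate 3 of D0 held 18286 counts and was left out of the values and fits given here, apart from the alternative fits named as using all 24 HC libraries.

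MiR-125b-5p had the largest rise among abundant miRNAs, here those that averaged 100 CPM or more over the 8 libraries and whose days did not overlap. It stood at 2391, 2145, 3677 and 2830 CPM at D7 and at 11192, 8692, 8715 and 8446 CPM at D28. The lowest D28 library was thus well above the highest D7 library, and the first D28 library stood apart from the other 3. The change was 3.35-fold (log2 1.75, SE 0.18, edgeR adjusted p = 2.8e-07). Both passenger arms rose as well, miR-125b-1-3p from chromosome 9 by 2.58-fold and miR-125b-2-3p from chromosome 16 by 1.90-fold, so the rise was seen in arms that name each of the 2 hairpins. MiR-125a-5p, with the same seed, had 3118, 2339, 4431 and 3199 CPM at D7 and 9321, 7545, 8626 and 6107 CPM at D28. It rose 2.41-fold without overlap (log2 1.27, SE 0.21, edgeR adjusted p = 5.3e-05).

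The miR-99 members share the seed ACCCGUA, and all 3 tested with it rose. MiR-99a-5p had 14955, 13267, 19758 and 16321 CPM at D7 and 35498, 33548, 30091 and 29431 CPM at D28, a 2.00-fold rise without overlap (log2 1.00, SE 0.17, edgeR adjusted p = 0.00012). MiR-100-5p, which differs from miR-99a-5p at 1 base, stood at 11234, 10700, 16321 and 13072 CPM at D7 and 27309, 26213, 22790 and 23169 CPM at D28, and rose 1.94-fold (edgeR adjusted p = 0.00051). Reads may be shared between sequences this close. MiR-99b-5p changed less, by 0.63 on the log2 scale with overlapping ranges, and its edgeR adjusted p of 0.016 became 0.058 without D7 replicate 2.

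These miRNAs are encoded with let-7 members. Mir99a and Mirlet7c-1 lie in an intron of Mir99ahg at chr16:77598936-77599750, and Mir125b-2 lies in an intron of the same gene. Mir99b, Mirlet7e and Mir125a overlap Spaca6 at chr17:17830194-17830879, where 5 of 6 arms tested rose and none fell, with a median log2 change of 0.68. Without D7 replicate 2 only 2 of these 6 passed, miR-125a-5p and let-7e-3p, with a median of 0.59. Mirlet7c-2 and Mirlet7b overlap exons of Lncppara at chr15:85706603-85707403, where 3 of 4 arms rose.

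The let-7 family is one of the most abundant in these cells and is known for restraining proliferation. Here it did not move as a block, since 4 of 9 members rose and 1 fell (3 and 0 without D7 replicate 2) and its sum was 25.6% to 29.0% of counts at D7 and 25.8% to 31.1% at D28. Let-7b-5p had 7111, 8743, 9536 and 7647 CPM at D7 and 17272, 13387, 15845 and 13700 CPM at D28, a rise of 1.82-fold without overlap (log2 0.87, SE 0.14, edgeR adjusted p = 4.7e-05). Let-7c-5p, 1 base away, rose 1.50-fold. Let-7i-5p fell, from 32315, 34491, 25129 and 30653 CPM to 22733, 22296, 25542 and 21305 CPM, with 1 D28 library inside the D7 range (log2 -0.42, edgeR adjusted p = 0.016). That call was lost without D7 replicate 2 (edgeR adjusted p = 0.066). Let-7d-5p and let-7e-5p rose by 0.42 and 0.37 on the log2 scale, calls lost without D28 replicate 1 and, for let-7e-5p, also when any 1 of 4 other libraries was left out.

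The 2 most abundant let-7 members did not pass the test. Let-7f-5p, with a mean of 72583 ± 3839 CPM at D7 and 76919 ± 11168 CPM at D28 (SD, n = 4 each), had a log2 change of 0.08. Let-7a-5p had one of 0.21 (edgeR adjusted p = 0.21). MiR-26a-5p, the only one of the 5 most abundant miRNAs that rose, had 40768, 35858, 38480 and 38683 CPM at D7 and 64393, 52345, 59114 and 56374 CPM at D28. It gained 1.51-fold without overlap (log2 0.59, SE 0.10, edgeR adjusted p = 8.1e-05).

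Mir195a and Mir497, at chr11:70234717-70235135, belong to the miR-15/16 family, which inhibits the cell cycle. All 3 arms tested from this locus rose. MiR-497a-5p had 28.9, 27.4, 45.0 and 46.8 CPM at D7 and 127, 86.1, 86.0 and 122 CPM at D28, a 2.84-fold rise (log2 1.51, SE 0.24, edgeR adjusted p = 3.5e-05). MiR-195a-5p had 66.6, 57.9, 91.4 and 80.4 CPM at D7 and 200.2, 141, 157 and 217 CPM at D28, a 2.41-fold rise (edgeR adjusted p = 1.7e-05). Neither overlapped between days. Of the 6 miRNAs with the seed AGCAGCA, these 2 rose and miR-15b-5p fell by 0.55 on the log2 scale (edgeR adjusted p = 0.032), a call that was lost without D7 replicate 2 (log2 -0.28, edgeR adjusted p = 0.26). MiR-15b-5p differs from miR-497a-5p at 6 bases and is made from an intron of Smc4.

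**Figure D2:**
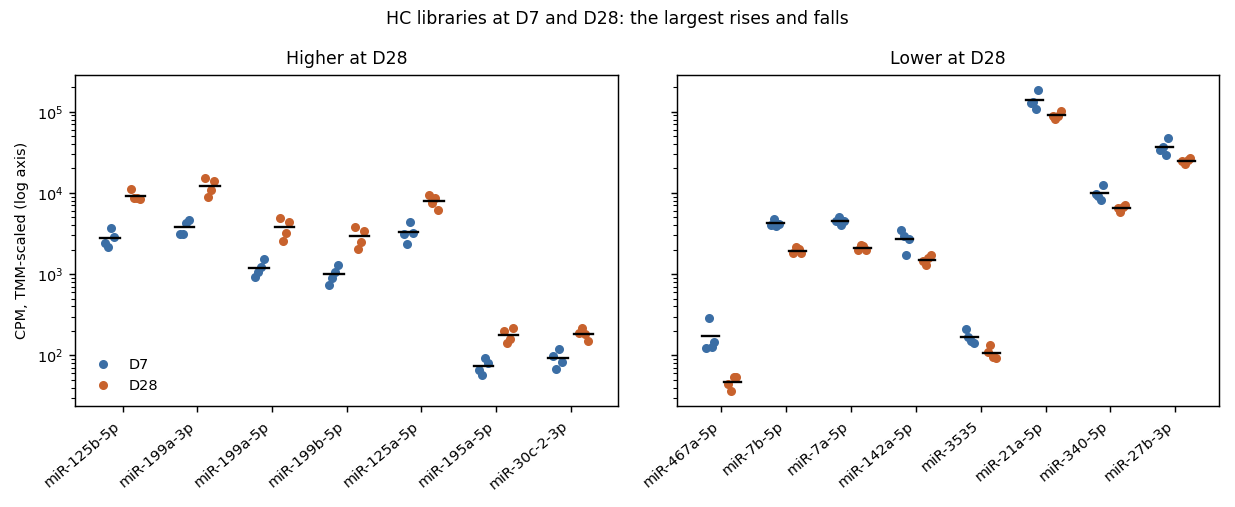
CPM of each HC library at D7 and D28 on a log axis for 7 of the 8 abundant miRNAs with the largest rises and the 8 with the largest falls, with bars at the mean of 4 libraries. The eighth rise, miR-199b-3p, is left out because its counts equal those of miR-199a-3p. The libraries of the days do not overlap in any panel, which is how these miRNAs were chosen.

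Among 16 miRNAs known to be induced by inflammation, 9 fell and 2 rose, with a median log2 change of -0.64. Without D7 replicate 2 the counts were 5 and 2. Over all 635 miRNAs 19.4% fell and 11.5% rose with all libraries. The falls on this list included both arms of miR-147, miR-21a, miR-132 and miR-212, and arms of a common transcript are not separate measurements. The 2 on the list that rose were miR-146a-5p and miR-146b-5p, which lower the signalling proteins TRAF6 and IRAK1 and so limit NF-kB. MiR-146a-5p had 28395, 19424, 25138 and 21961 CPM at D7 and 45642, 48709, 47139 and 41593 CPM at D28. All D28 libraries were above all D7 libraries, with a 1.93-fold rise (log2 0.95, SE 0.16, edgeR adjusted p = 8.1e-05). MiR-146b-5p differs from it at 2 bases, comes from an intron of Mfsd13a and stood at 4086, 3120, 3665 and 3784 CPM at D7 and 5190, 4931, 5818 and 4428 CPM at D28. Its rise was 1.39-fold, also without overlap (log2 0.47, edgeR adjusted p = 0.0093).

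MiR-147, which is induced through toll-like receptors in macrophages, fell most among the inflammation-induced miRNAs. MiR-147-3p had 36.1, 26.4, 34.4 and 38.2 CPM at D7 and 4.37, 7.90, 7.65 and 7.13 CPM at D28. The D28 libraries were all below the lowest D7 library, and the fall was 4.96-fold (log2 -2.31, SE 0.27, edgeR adjusted p = 1.2e-06). The 5′ arm, from the same hairpin in an exon of AA467197, had 35.2, 30.9, 47.6 and 34.6 CPM at D7 and 7.36, 7.33, 13.8 and 9.72 CPM at D28. It fell 3.87-fold (log2 -1.95, SE 0.25, edgeR adjusted p = 2.3e-06).

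MiR-21a-5p was the most abundant miRNA of HCs at D7. Its CPM values were 129177, 131085, 106865 and 187223 at D7 and 88959, 80657, 88477 and 103264 at D28, with the highest D28 library just under the lowest D7 library. The fall was 1.53-fold (log2 -0.62, SE 0.16, edgeR adjusted p = 0.0044). Its rare partner arm miR-21a-3p, from the same hairpin in an exon of Vmp1, fell 2.05-fold, from 25.9, 21.9, 27.5 and 36.2 CPM to 12.6, 16.4, 13.9 and 11.5 CPM.

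MiR-132 and miR-212 are made from a cluster at chr11:75173388-75173747 that is induced through the factor CREB. All 4 arms tested from it fell with all libraries, and without D7 replicate 2 only miR-132-3p did (edgeR adjusted p = 0.011). MiR-132-3p had 21.5, 28.1, 18.7 and 16.8 CPM at D7 and 12.1, 12.2, 11.3 and 12.1 CPM at D28, a 1.78-fold fall without overlap (log2 -0.84, SE 0.19, edgeR adjusted p = 0.0013). MiR-212-5p fell by 0.54 on the log2 scale, a call lost when any 1 of 6 libraries was left out, and miR-212-3p had an edgeR adjusted p of 0.13 without D7 replicate 2. MiR-155-5p, from an exon of Mir155hg, stood at 309, 300, 171 and 132 CPM at D7 and 123, 118, 123 and 161 CPM at D28. D7 replicate 4 lay inside the D28 range, so the ranges overlapped. Its 1.74-fold fall passed narrowly (edgeR adjusted p = 0.040), and the call was lost without D7 replicate 1 or 2 or any of 3 D28 libraries.

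MiR-7a-5p and miR-7b-5p, which restrain growth factor signalling, fell alongside. MiR-7a-5p had 4477, 5062, 4079 and 4528 CPM at D7 and 1960, 2291, 2239 and 1981 CPM at D28, and miR-7b-5p had 4034, 4727, 3859 and 4193 CPM at D7 and 1793, 2130, 2033 and 1810 CPM at D28. Libraries of a day lay close together and the days were clearly apart. The falls were 2.14-fold and 2.16-fold (edgeR adjusted p = 2.3e-06 and 2.4e-06). The sequences are nearly identical, so a share of the reads of one may belong to the other. One hairpin of miR-7a lies in an intron of Hnrnpk.

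Of the 6 myeloid and pan-leukocyte miRNAs, the 2 arms of miR-142a fell and the other 4 did not pass. MiR-142a-5p had 3536, 2952, 1715 and 2681 CPM at D7 and 1434, 1304, 1567 and 1708 CPM at D28, with the third D7 library barely above the D28 range. It fell 1.81-fold (log2 -0.86, SE 0.23, edgeR adjusted p = 0.0075). The abundant arm miR-142a-3p had 9509, 10810, 5758 and 9098 CPM at D7 and 4111, 4954, 4613 and 6430 CPM at D28, and its ranges overlapped through D7 replicate 3 (1.75-fold lower, edgeR adjusted p = 0.0096). MiR-223-3p, the granulocyte and monocyte miRNA, had 1063, 933, 1342 and 1235 CPM at D7 and 1381, 1316, 1475 and 1390 CPM at D28, with a log2 change of 0.28 that did not pass (edgeR adjusted p = 0.17). MiR-511-3p, from an intron of a macrophage receptor gene, had one of -0.05, which took the opposite sign under DESeq2 and without D7 replicate 3 or 4.

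The hypoxia miRNA miR-210 fell in both arms. MiR-210-3p had 99.6, 116, 110 and 133 CPM at D7 and 71.2, 76.2, 64.8 and 67.1 CPM at D28, a 1.64-fold fall without overlap (log2 -0.71, SE 0.21, edgeR adjusted p = 0.014). Without D28 replicate 3 the edgeR adjusted p was 0.051. Its mean was 425 CPM at D3 and 49.5 CPM at D0.

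The seed-sharing miR-27a-3p and miR-27b-3p fell while their cluster partners did not. MiR-27b-3p had 34214, 36511, 29242 and 47074 CPM at D7 and 24663, 22969, 25217 and 26601 CPM at D28, a 1.48-fold fall without overlap (log2 -0.56, SE 0.12, edgeR adjusted p = 0.00082). MiR-27a-3p fell 1.33-fold (edgeR adjusted p = 0.016), a call lost without D7 replicate 4 (edgeR adjusted p = 0.093) and at 0.050 without D28 replicate 3. MiR-23a-3p, from the same locus at chr8:84208518-84208921, stood at 2570, 2575, 3065 and 3098 CPM at D7 and 4266, 3637, 4001 and 4156 CPM at D28 and rose 1.42-fold (edgeR adjusted p = 0.0023). MiR-23b-3p, beside miR-27b, rose 1.34-fold (edgeR adjusted p = 0.012, and 0.044 without D7 replicate 2), and miR-24-3p, made from both loci, had a log2 change of 0.13 (edgeR adjusted p = 0.50). MiR-27a-3p and miR-27b-3p differ at 1 of 21 bases.

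Among other abundant falls, miR-340-5p, from an intron of Rnf130, had 9818, 9043, 8250 and 12630 CPM at D7 and 6558, 5761, 6680 and 7169 CPM at D28 (log2 -0.60, SE 0.14, edgeR adjusted p = 0.0026). MiR-3535, whose sequence overlaps a small nucleolar RNA within Ncl, fell by 0.63 on the log2 scale, a call lost without D7 replicate 1 or D28 replicate 3 or 4. The counting cannot separate it from fragments of that RNA.

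The Sfmbt2 cluster, a rodent group of miRNAs made from an intron of that gene, fell almost throughout. Of 27 members tested 25 fell and none rose, with a median log2 change of -1.50, and 18 fell without D7 replicate 2, with a median of -1.12. MiR-467a-5p, its member among the abundant falls, had 123, 288, 127 and 144 CPM at D7 and 44.4, 36.0, 54.6 and 54.5 CPM at D28. D7 replicate 2 stood above the rest, and all 4 D7 libraries were above all D28 libraries. The fall was 3.60-fold (log2 -1.85, SE 0.26, edgeR adjusted p = 7.9e-06).

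MiR-669a-5p, from the same cluster, fell from 33.6, 58.6, 22.6 and 31.3 CPM to 8.42, 11.7, 11.1 and 11.1 CPM (log2 -1.78, SE 0.23, edgeR adjusted p = 2.9e-06). MiR-466a-3p fell by 1.73 and miR-467b-5p by 1.50 on the log2 scale. For miR-669c-5p the call was lost without D7 replicate 2 (log2 -0.67, edgeR adjusted p = 0.11). Members of this cluster are near copies of each other and the way their reads were divided is not shown by the tables, so they are not 27 separate measurements.

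**Figure D3:**
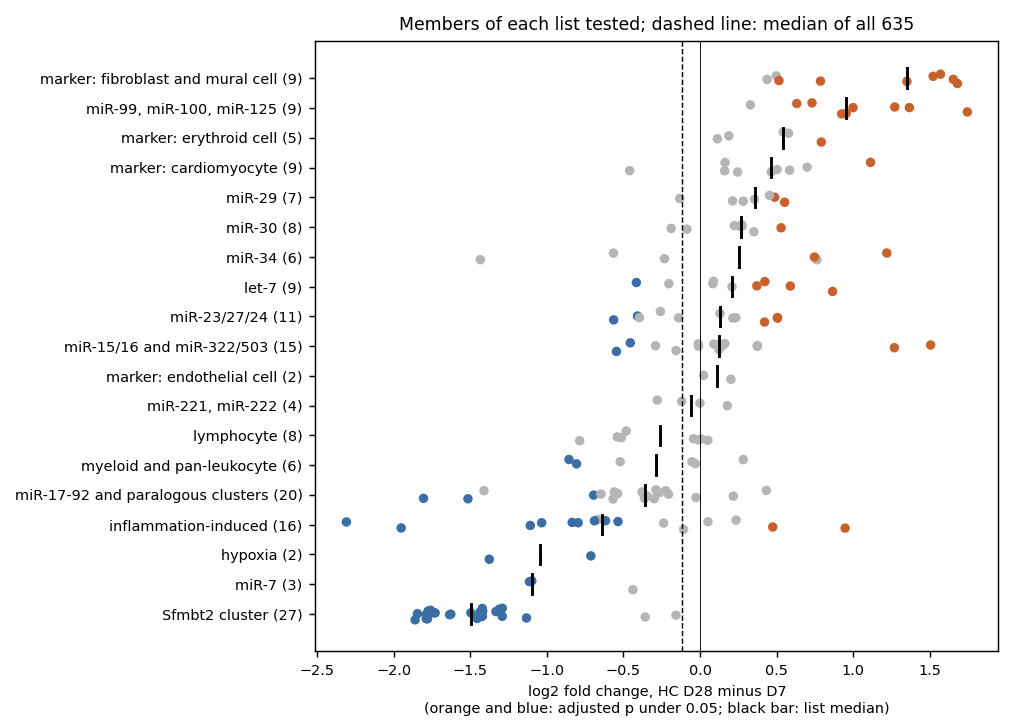
Log2 change from D7 to D28 of each member of the lists, 1 row per list, with the list median as a black bar and the median of all 635 miRNAs as a dashed line. The 9 fibroblast and mural cell markers and the 9 members of the miR-99, miR-100 and miR-125 families all lie right of the dashed line, and the 27 members of the Sfmbt2 cluster all lie left of it.

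Lymphocyte miRNAs depended on single D7 libraries. None of 8 passed with all libraries, with a median log2 change of -0.26. Without D7 replicate 2, 3 rose and 1 fell, with a median of 0.34. MiR-181a-5p, which is high in developing T and B cells, had 5275, 23574, 5293 and 4942 CPM at D7 and 7748, 13434, 8552 and 8201 CPM at D28. With D7 replicate 2 its log2 change was -0.04 (edgeR adjusted p = 0.94), and without it 0.88 (edgeR adjusted p = 0.00024). MiR-150-5p, the miRNA of mature lymphocytes, stood at 8024 CPM in D7 replicate 1 and at 1708 to 2685 CPM in the other 7 libraries, and did not pass (edgeR adjusted p = 0.069). It was the 1 that fell without D7 replicate 2 (log2 -0.97, edgeR adjusted p = 0.032). Without D7 replicate 1 its log2 change was -0.10 (edgeR adjusted p = 0.79).

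The miR-17-92 cluster and its paralogs drive proliferation of lymphoid and myeloid precursors. Of 20 members tested 3 fell with all libraries, 0 without D7 replicate 2 and 8 with scaling by library size. Over all 635 miRNAs 19.4% fell with all libraries, and more fell with scaling by library size. MiR-363-3p, from the paralogous cluster on chromosome X, had 34.6, 175, 12.4 and 18.7 CPM at D7 and 10.8, 40.8, 15.3 and 17.1 CPM at D28. Its log2 change was -1.52 with D7 replicate 2 (edgeR adjusted p = 0.034) and -0.05 without it. MiR-20b-5p and miR-18b-5p, from the same cluster, were also highest in that library, at 668 and 60.6 CPM.

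The remaining lists had 0 to 2 calls each, against 11.5% higher and 19.4% lower over all miRNAs. Of the miR-29 family, which targets collagen mRNAs, 2 of 7 rose and none did without D7 replicate 2. One of 8 members of the miR-30 family rose, and miR-30c-2-3p, a passenger arm not on that list, had 97.0, 66.8, 118 and 83.2 CPM at D7 and 187, 218, 182 and 150 CPM at D28 (2.02-fold, edgeR adjusted p = 0.00016). The miR-34 family, a target of p53, had 2 of 6 members that rose, led by miR-34b-5p with 34.8, 33.9, 37.9 and 49.2 CPM at D7 and 120, 61.9, 86.1 and 95.5 CPM at D28 (2.33-fold, edgeR adjusted p = 0.00024). MiR-34b-5p was at 9.11% of its FB level at D7 and 21.8% at D28. None of the 4 arms of miR-221 and miR-222 passed.

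D14 lies between the days compared, and each step shares libraries with the whole interval, so its values are only set side by side. From D7 to D14, 116 miRNAs changed (18.3%), 50 higher (7.87%) and 66 lower (10.4%). From D14 to D28, 31 changed (4.88%), 14 higher (2.2%) and 17 lower (2.68%). The first count was 51 without D7 replicate 2, and the second was 3 without D14 replicate 3 and 5 without D28 replicate 4. At an unadjusted p under 0.05 the counts were 198 and 107.

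MiR-125b-5p gained 0.86 on the log2 scale in the first step (edgeR adjusted p = 0.0024) and 0.89 in the second (edgeR adjusted p = 0.0092, lost without D14 replicate 3). MiR-7a-5p changed by -0.86 in the first step (edgeR adjusted p = 0.00033) and by -0.24 in the second (edgeR adjusted p = 0.41). For miR-147-3p the order was the reverse, with -0.72 in the first step (edgeR adjusted p = 0.052) and -1.59 in the second (edgeR adjusted p = 0.0020, past the threshold without any 1 library). Of the Sfmbt2 cluster, 19 of 27 members fell in the first step. Among its named members, the calls of miR-669c-5p, miR-466a-3p, miR-467b-5p and miR-467c-5p were lost without D7 replicate 2. Those of miR-467a-5p, miR-669a-5p and miR-669o-5p held in all 8 fits that left out a library.

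Markers of other heart cells rose to D14. All 9 fibroblast and mural cell markers rose in the first step, and 3 rose and 2 fell in the second. MiR-143-3p gained 1.15 on the log2 scale to a mean of 13452 CPM at D14 and changed by -0.71 in the second step (edgeR adjusted p = 0.00041 and 0.040). The second call held in 1 of 8 fits that left out a library. The 12 listed cardiomyocyte miRNAs summed to 4.83% to 7.24% of counts at D14, with 8 of the 9 tested higher than at D7, and endothelial miRNAs to 3.00% to 4.58%. Both ranges lay above those of the same markers at D7 and at D28.

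The levels at D28 are set beside those at D0 and D3. MiR-146a-5p had a mean of 41953 CPM at D0, 10413 CPM at D3, 23730 CPM at D7 and 45771 CPM at D28. MiR-147-3p had 1.98 CPM at D0, 49.7 CPM at D3, 33.8 CPM at D7 and 6.76 CPM at D28. MiR-7a-5p had 2024 CPM at D0, 8707 CPM at D3 and 2118 CPM at D28. MiR-21a-5p stood at 47887 CPM at D0 and 90339 CPM at D28, and miR-199a-3p at 4536 CPM and 12224 CPM. In the 3 D0 libraries used, cardiomyocyte markers summed to 8.63% to 11.7% of HC counts, against 2.64% to 4.30% at D28. Endothelial markers summed to 5.67% to 9.18% at D0, against 1.94% to 2.40% at D28. For fibroblast and mural cell markers the sums were 2.73% to 3.76% at D0 and 2.37% to 3.11% at D28. The part of these shares in the D0 levels was not tested. No test of D28 against D0 was made here.

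**Figure D4:**
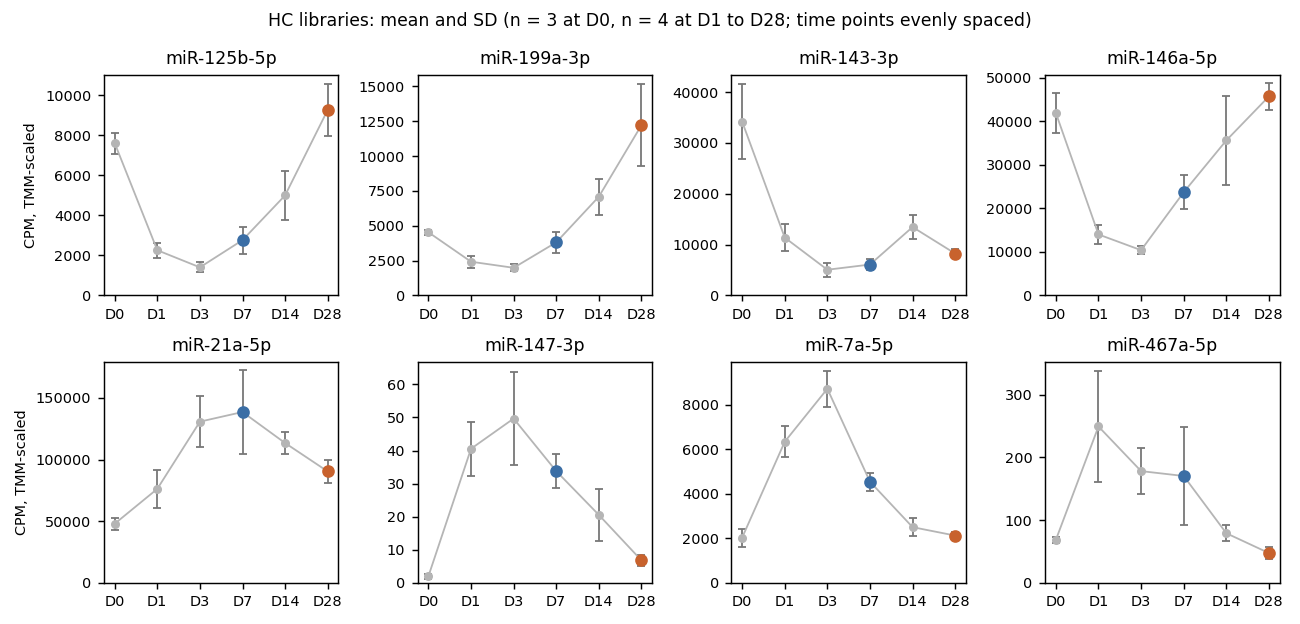
Mean CPM ± SD of 8 miRNAs in HCs at D0, D1, D3, D7, D14 and D28 on linear axes, with n = 4 libraries a day and n = 3 at D0. MiR-146a-5p and miR-125b-5p are lowest at D3 and rise to D28, miR-147-3p and miR-7a-5p are highest at D3 and fall, and miR-143-3p peaks at D14 within the interval.

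The change of HCs was then compared with that of FBs isolated at the same days, which had equal RNA input and PCR cycles. The study states that the cell types of a day came from the same animals. Both cell types were fitted together on 16 libraries, with 623 miRNAs tested. FBs themselves had 194 changed miRNAs (31.1%), 65 higher (10.4%) and 129 lower (20.7%). The change differed between HCs and FBs in 111 miRNAs (17.8%). Taken with its sign, the log2 change was higher in HCs for 82 (13.2%) and lower for 29 (4.65%). With a block of day and number, added after the data were seen, 95 differed, 81 with the higher and 14 with the lower change in HCs. The median difference over all 623 was 0.12. When any 1 FB D28 library was left out, this median lay between -0.09 and -0.03 and the split was between 42 to 36 and 45 to 52, and without HC D28 replicate 3 it was 45 to 35.

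Of the 9 fibroblast and mural cell markers, 6 had a larger log2 change in HCs than in FBs and none a smaller one past the test. MiR-199a-5p had a log2 change of 0.06 in FBs (edgeR adjusted p = 0.84), and the difference of 1.62 passed (edgeR adjusted p = 0.0016) in all 16 fits that left out 1 library. Its level in HCs was 7.21% of that in FBs at D7 and 22.5% at D28. MiR-214-5p differed by 1.62 as well (edgeR adjusted p = 0.0016). MiR-199a-3p rose in FBs as well, by 0.58 on the log2 scale, and differed by 1.12 (edgeR adjusted p = 0.0048), a call lost without FB D28 replicate 2 or 4.

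For miR-99a-5p the FB change was -0.00 and the difference 1.03 (edgeR adjusted p = 0.0026, held in all 16 fits). MiR-125b-5p rose in FBs too, by 0.84 on the log2 scale, and the difference of 0.93 (edgeR adjusted p = 0.0083) held in 11 of 16 fits. Its level in HCs was 16.9% of that in FBs at D7 and 32.6% at D28. In the miR-99, miR-100 and miR-125 families 6 of 9 members differed, each with the larger change in HCs.

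MiR-146a-5p had a log2 change of -0.14 in FBs (edgeR adjusted p = 0.65), and miR-146b-5p fell there by 0.78 (edgeR adjusted p = 0.0021). The differences of 1.11 and 1.28 passed (edgeR adjusted p = 0.0089 and 0.0026), in all 16 fits each. Unlike the fibroblast markers, miR-146a-5p was far higher in HCs than in FBs, at 2649% of the FB level at D7 and 5753% at D28. MiR-27b-3p differed in the other direction, by -0.88 (edgeR adjusted p = 0.0034, in all 16 fits), with 0.34 in FBs.

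Several of the strongest falls were seen in both cell types. MiR-7a-5p changed by -1.01 in FBs, miR-147-3p by -2.38 and miR-467a-5p by -1.78, and none of the 3 differences passed (edgeR adjusted p = 0.94, 0.93 and 0.96). Of the 16 inflammation-induced miRNAs, 11 fell in FBs and none rose, with a median log2 change of -0.84. For 3 of these 16 the difference from HCs passed, each with the higher log2 change in HCs. Of the Sfmbt2 cluster 10 of 24 members fell in FBs, and for none of the 24 did the difference from HCs pass. A difference that does not pass does not show that the changes are equal. MiR-210-3p, by contrast, had a log2 change of -0.04 in FBs, and the difference of -0.65 passed narrowly (edgeR adjusted p = 0.045, in 9 of 16 fits).

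**Figure D5:**
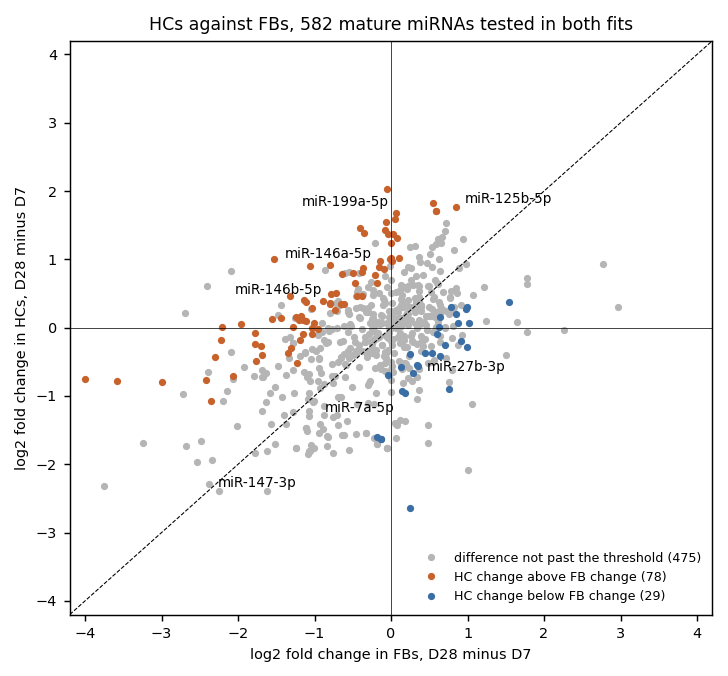
Log2 change from D7 to D28 in HCs against that in FBs for the 582 miRNAs tested both in HCs alone and in the joint fit, with a dashed line where the changes are equal. The 78 miRNAs above and the 29 below with a difference past the threshold are coloured, and 475 are grey.

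The ratio of the 5′ to the 3′ arm of a hairpin cannot be moved by the scaling of a library. Of 155 arm pairs 3 changed (1.94%), 2 towards the 5′ arm (1.29%) and 1 towards the 3′ arm (0.645%) (limma, adjusted p under 0.05), and 25 had an unadjusted p under 0.05. The log2 ratio of miR-28a was -0.35, -0.29, -0.22 and 0.18 at D7 and 0.69, 0.49, 0.30 and 0.80 at D28, a change of 0.74 (SE 0.16, limma adjusted p = 0.028). MiR-434 changed by -1.10 and miR-409 by 1.10, each with a limma adjusted p of 0.031. With all 24 HC libraries, and without D7 replicate 1, 2 or 3 or D28 replicate 1 or 4, no pair passed.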

How the data were processed

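The authors trimmed adaptors with Trim Galore, removed reads under 18 bases, aligned the rest to mature sequences of miRBase through the nf-core pipeline for small RNA and deposited raw counts per mature miRNA. The submitters' processing notes also name Bowtie2, SAMtools and mm10. Pipeline version and aligner settings are not given in the sources used here, nor is the treatment of reads that match more than 1 sequence. Of the 635 miRNAs tested, 24 had counts identical to those of another. The line of unmatched reads entered neither library sizes nor tests.

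Counts of 23 HC libraries were scaled with TMM, filtered with filterByExpr and tested with edgeR 4.0.16 in R 4.3.3, by the quasi-likelihood test of D28 against D7 with Benjamini-Hochberg adjustment over all miRNAs tested and a threshold of 0.05. D0 replicate 3 was left out for its depth. HCs and FBs at D7 and D28 were fitted together on 16 libraries for the difference of their changes. Log2 arm ratios were computed from the deposited counts with a pseudocount of 0.5, for pairs whose arms each averaged 10 counts or more, and tested with limma 3.58.1. Scripts were tested on simulated data. Sequences came from RefSeq tables of GRCm38.p6, in which 515 of the 635 miRNAs were found, and host genes from the GENCODE annotation. Python 3.11.15 was used for tables and figures.

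MiRNAs were named by a rule: the 8 largest rises and 8 largest falls past the threshold that averaged 100 CPM or more and did not overlap between days, the 5 with the highest CPM, members of the lists, miRNAs with counts identical to these, and up to 4 arm pairs past the threshold with at least 50 counts on each arm, of which 3 qualified. The comparison, the lists and the members were chosen with earlier results of these data known. Labels say the libraries are separate replicates. Each heart was harvested on a single day, so no pool spans days, and whether replicate numbers mark the same pool across cell types is not stated. Alternatives were DESeq2 1.42.0, scaling by library size, a replicate block, no filter on low counts, the compared days alone, all 24 HC libraries, thinning to one depth, other arm ratio settings and each library left out. The counts of lists, loci and seeds without D7 replicate 1 or 2 and a block of day and number for HCs against FBs were chosen after seeing the data.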

Additional observations from a re-analysis of the deposited data

Results flagged for a closer look

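In groups of 4 libraries, 1 library lay far from the other 3 in 8 of the 146 day groups of named miRNAs, judged by its gap to the nearest other library as a share of the group's range (Dixon's test at the 95% level). Chance gives this in about 1 in 20 groups. D7 replicate 2 was the highest library for miR-181a-5p (23574 CPM, share 0.956) and miR-18b-5p (60.6 CPM, share 0.912). D7 replicate 1 was the highest for miR-150-5p (8024 CPM, share 0.944). At D28, replicate 1 was the highest for miR-125b-5p (11192 CPM, share 0.889) and the lowest for miR-669a-5p (8.42 CPM, share 0.837), and replicate 4 was the highest for miR-155-5p (161 CPM, share 0.854) and the lowest for miR-143-3p (6825 CPM, share 0.895). Replicate 3 was the lowest for miR-132-3p (11.3 CPM, share 0.844), where the 4 libraries lay within 1 CPM of each other.

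The log2 change from D7 to D28 differed between HCs and FBs in 22 named miRNAs, by the interaction term of the joint fit (edgeR quasi-likelihood test). The change was larger in HCs for miR-125b-1-3p by 1.75 (edgeR adjusted p = 0.0014), miR-214-5p by 1.62 (0.0016), miR-199a-5p by 1.62 (0.0016), miR-199b-5p by 1.55 (0.0019), miR-214-3p by 1.35 (0.0026), miR-146b-5p by 1.28 (0.0026), miR-34b-5p by 1.24 (0.0096), miR-199a-3p and the identical miR-199b-3p by 1.12 (0.0048), and miR-146a-5p by 1.11 (0.0089). It was also larger for miR-99a-5p by 1.03 (0.0026), miR-34c-5p by 0.98 (0.030), miR-100-5p by 0.97 (0.0035), miR-125b-5p by 0.93 (0.0083), miR-99b-5p by 0.84 (0.021) and miR-143-3p by 0.84 (0.015). For miR-212-5p, which fell in HCs, the change was less negative there than in FBs, with a difference of 0.71 (0.044). That call held in 3 of 16 fits that left out 1 library. The difference was negative for miR-27b-3p at -0.88 (0.0034), miR-340-5p at -0.71 (0.026), miR-210-3p at -0.65 (0.045), miR-27a-3p at -0.63 (0.021) and miR-24-3p at -0.48 (0.026). The call held in all 16 fits that left out 1 library for miR-125b-1-3p, miR-214-5p, miR-214-3p, miR-199a-5p, miR-199b-5p, miR-146a-5p, miR-146b-5p, miR-99a-5p and miR-27b-3p.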

How the results depend on the processing

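The 196 miRNAs changed from D7 to D28 became 222 with scaling by library size, 188 without a filter on low counts, 162 with the compared days alone, 187 with all 24 HC libraries, 197 with DESeq2 (88 higher and 109 lower) and 129 of 459 tested (61 and 68) after thinning to one depth, and 136 to 218 with 1 library left out. For D14 against D7 the 116 became 48 with the days alone (34 higher and 14 lower) and 51 to 150 with 1 library left out, with 51 without D7 replicate 2, 56 without D14 replicate 4 and 77 without D14 replicate 1. For D28 against D14 the 31 became 54 without the filter and with DESeq2, 56 with the days alone, 13 with all 24 libraries, 19 after thinning and 3 to 23 with 1 library left out. The 3 arm ratios became 6 with a pseudocount of 5, 0 with all 24 libraries and 0 to 3 with 1 library left out. The 111 differences from FBs became 67 to 147 with 1 library left out, 67 without FB D7 replicate 4, 73 without FB D28 replicate 3 and 71 without HC D28 replicate 1, and 86 without the filter. Of 58 named miRNAs past the threshold, 40 kept the call and sign under every alternative and 1, miR-18b-5p, changed sign in one. Values that changed sign without a call were let-7f-5p at -0.041 and let-7g-5p at -0.035 with scaling by library size, miR-511-3p at 0.012 with DESeq2 and -0.20 to 0.11 with 1 library left out, and miR-181a-5p at 0.011 after thinning and 0.058 with DESeq2. With 1 library left out, miR-181a-5p ranged from -0.26 to 0.88, miR-20b-5p from -1.94 to 0.31, miR-18b-5p from -2.33 to 0.61 and miR-451a from -0.34 to 0.35. Apart from the library left out, the cause of these shifts was not tested.

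Libraries of D7 and D28 with the same number did not all deviate together (correlations 0.05, 0.33, -0.15 and 0.31 over 314 miRNAs). Those with different numbers ranged from -0.52 to 0.51, so these values cannot decide whether the numbers mark a link. The pools of D7 and D28 came from different mice, since each heart was harvested on a single day. With the replicate block 179 miRNAs changed from D7 to D28, 104 from D7 to D14, 26 from D14 to D28, 3 arm ratios changed, 95 miRNAs differed between HCs and FBs, and miR-181a-5p was at 0.094. A block of day and number, chosen after seeing the data, gave 95 (81 higher and 14 lower), 88 of them shared with the fit without it.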

Other observations

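Some changes lie outside the lists and the rule for named miRNAs and were chosen after their values were seen. MiR-676-3p had 20.4, 20.0, 36.1 and 20.8 CPM at D7 and 107, 78.1, 76.6 and 77.3 CPM at D28, a 3.49-fold rise without overlap (edgeR adjusted p = 6.7e-06). MiR-320-3p, which is made without the enzyme Drosha, rose 1.80-fold (edgeR adjusted p = 0.00012), and its log2 change was 0.89 in FBs. MiR-21b, a miRNA close in sequence to miR-21a-5p, had 33.4, 25.3, 25.6 and 37.2 CPM at D7 and 4.69, 4.07, 5.25 and 5.17 CPM at D28. It fell 6.32-fold (edgeR adjusted p = 0.00079) where miR-21a-5p fell 1.53-fold, its log2 change was 0.25 in FBs, and reads of the far more abundant miR-21a-5p may enter its count.

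Members with a common seed did not always move together. With the seed CAGUGCA, miR-152-3p rose by 0.54 on the log2 scale (edgeR adjusted p = 0.0023) and miR-148b-3p fell by 0.37 (edgeR adjusted p = 0.024, and 0.049 without D7 replicate 2). With the seed AGUGCAA, miR-130a-3p rose by 1.20 (edgeR adjusted p = 0.00074) and miR-301a-3p fell by 0.75 (edgeR adjusted p = 0.043), a call lost without D7 replicate 2 (log2 -0.58, edgeR adjusted p = 0.14).

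Of the 3 arms tested from the cluster of miR-182, miR-96 and miR-183 at chr6:30165918-30169737, 2 fell in HCs with all libraries and none without D7 replicate 2. MiR-182-5p fell by 0.80 on the log2 scale in HCs (edgeR adjusted p = 0.0094, and 0.054 without that library) and by 3.59 in FBs, and the difference of 2.81 passed the test. The cell cycle miRNA miR-322-5p had a log2 change of 0.09 in HCs and -1.21 in FBs, and miR-503-5p, from the same cluster on chromosome X, -0.29 and -1.70.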
